A study of Mus musculus with 10 samples.

Results

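The 10 genes described here carry growth hormone signalling in the liver or are outputs of it. They were chosen by name out of the 16647 genes of the count table, and all 10 were found and passed the minimum of 60 counts summed over the livers that left 13219 genes for testing. They are *Ghr* and the transcription factor genes *Stat5a* and *Stat5b*, the circulating outputs *Igf1* and *Igfals*, the feedback inhibitors *Socs2* and *Cish*, and the liver transcription factor genes *Bcl6*, *Onecut1* and *Cux2*.

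Growth hormone from the pituitary binds its receptor Ghr on hepatocytes, and the kinase Jak2 bound to the receptor phosphorylates Stat5a and Stat5b, which enter the nucleus and bind DNA. In male rodents the hormone is secreted in pulses and in females more evenly, and many liver genes are expressed at different levels in the sexes under this control. The repressor gene *Bcl6* is expressed more in male than in female mouse liver, and *Cux2* is known as a female-specific factor.

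Liver RNA was sequenced from 5 control and 5 MI-883-treated male mice of the PXR-CAR-CYP3A4/3A7 line, in both groups humanized for the nuclear receptors PXR and CAR and for the CYP3A4 and CYP3A7 genes. The mice were 10 to 15 weeks old when they were put on a high-fat diet (HFD), which they received for 8 weeks before and throughout the 4 weeks of treatment. MI-883, a ligand of human CAR and PXR, was given by gavage at 5 mg/kg 3 times per week, and control mice were given the vehicle alone, a mixture of DMSO, PEG300 and corn oil. Each library is whole liver tissue of another mouse. Fewer cells of a type and less RNA per cell cannot be told apart in such bulk samples.

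Between 23513665 and 36221514 reads per liver were counted on genes. The 4 transcripts of the Y chromosome that were examined had at least 242 counts in every liver. *Gh*, the hormone gene of the pituitary, had at most 1 count in any liver. *Cyp2b10*, the classical CAR target, was at 36.5 ± 9.10 CPM (counts per 1000000 of the TMM-scaled library, mean ± S.D., *n* = 5) in control livers and at 1019.5 ± 299 CPM after MI-883, a log2 fold change of 4.80 ± 0.25 (SE, edgeR adjusted *P* = 3.63e-07). The 6 hepatocyte marker genes summed to between 71412 and 82120 CPM in control and between 59845 and 73782 CPM in treated livers, and none of the 6 or of the 23 markers of leukocytes, endothelial, stellate and bile duct cells passed an adjusted *P* of 0.05. All 6 hepatocyte markers had negative log2 fold changes, with a median of −0.26. Positive values were found in 5 of 5 bile duct, 4 of 5 stellate, 4 of 5 endothelial and 6 of 8 leukocyte markers. The medians of these 4 sets were 0.55, 0.16, 0.19 and 0.03.

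The promoters of *Cish*, *Bcl6* and *Igfals* are shown because they hold the letters TTCNNNGAA, the palindromic consensus bound by Stat5 dimers. RefSeq promoter windows of GRCm38.p6, which run from 250 bases before to 50 bases after a transcription start, were found for 9 of the 10 genes (16 windows in all) and none for *Socs2*. Of these 16 windows 5 held the consensus. Of all 32851 RefSeq windows of this length, 8.30% held it at least once, 0.457% at least 2 times and 0.0335% at least 3 times. The sequences are written 5′ to 3′ on the strand of the gene, with each match in capitals. The consensus reads the same on both strands, and no 2 matches overlap.
*Cish*, chr9:107296409-107296708, + strand: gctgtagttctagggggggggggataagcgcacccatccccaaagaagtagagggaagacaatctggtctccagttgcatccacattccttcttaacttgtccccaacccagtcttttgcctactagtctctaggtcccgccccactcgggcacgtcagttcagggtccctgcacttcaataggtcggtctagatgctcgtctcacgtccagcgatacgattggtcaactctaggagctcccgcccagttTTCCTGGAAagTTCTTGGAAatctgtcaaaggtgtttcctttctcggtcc
*Bcl6*, upstream start, chr16:23988803-23989102, − strand: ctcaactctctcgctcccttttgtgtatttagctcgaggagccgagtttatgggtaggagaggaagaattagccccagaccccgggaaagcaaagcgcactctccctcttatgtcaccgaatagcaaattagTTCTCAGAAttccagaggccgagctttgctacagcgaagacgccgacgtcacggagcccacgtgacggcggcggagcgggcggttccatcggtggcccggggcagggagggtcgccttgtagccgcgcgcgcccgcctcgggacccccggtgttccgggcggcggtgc
*Bcl6*, downstream start, chr16:23981234-23981533, − strand: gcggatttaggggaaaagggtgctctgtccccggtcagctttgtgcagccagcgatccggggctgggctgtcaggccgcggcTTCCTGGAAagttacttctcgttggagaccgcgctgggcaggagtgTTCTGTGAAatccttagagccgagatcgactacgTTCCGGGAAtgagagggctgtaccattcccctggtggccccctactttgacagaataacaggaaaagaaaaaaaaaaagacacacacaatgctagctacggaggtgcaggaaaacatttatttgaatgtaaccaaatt
*Igfals*, second start, chr17:24877981-24878280, + strand: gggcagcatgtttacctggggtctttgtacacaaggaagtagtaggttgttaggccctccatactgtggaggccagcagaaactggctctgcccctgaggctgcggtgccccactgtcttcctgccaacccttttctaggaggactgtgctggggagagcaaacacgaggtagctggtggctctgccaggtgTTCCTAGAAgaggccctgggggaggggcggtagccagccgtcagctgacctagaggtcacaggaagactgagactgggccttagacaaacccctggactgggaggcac

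The *Cish* window held 2 matches, at bases 251 to 259 and 262 to 270, immediately behind the annotated start. The downstream *Bcl6* window held 3, at bases 83 to 91, 129 to 137 and 163 to 171, and the upstream window 1, at bases 133 to 141. The *Igfals* window shown held 1 match at bases 193 to 201, another window of the gene held 1, and the last held none. No match was found in the windows of *Ghr*, *Stat5a*, *Stat5b*, *Igf1*, *Onecut1* and *Cux2*. A match describes the letters of the window and is not a measured binding site.

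None of the 10 genes passed the test across all genes (edgeR quasi-likelihood test with Benjamini-Hochberg adjustment over 13219 genes, adjusted *P* under 0.05), whereas 1.03% of all tested genes did, 0.764% with higher and 0.265% with lower expression after MI-883. The smallest adjusted *P* among them, 0.142, was that of *Igf1*. Of the 10 genes 3 had an unadjusted edgeR *P* under 0.05 (*Igf1*, *Cish* and *Stat5a*), against 15.6% of all genes. The Wald test of DESeq2 called 1 of the 10, *Igf1*, and 3.5% of all genes. In none of the 10 genes were the CPM values of the groups free of overlap, while 3.98% of all tested genes had groups that did not overlap. The median log2 fold change was −0.20 over the 10 genes and 0.0045 over all tested genes, with 8 of the 10 values negative.

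**Figure D1:**
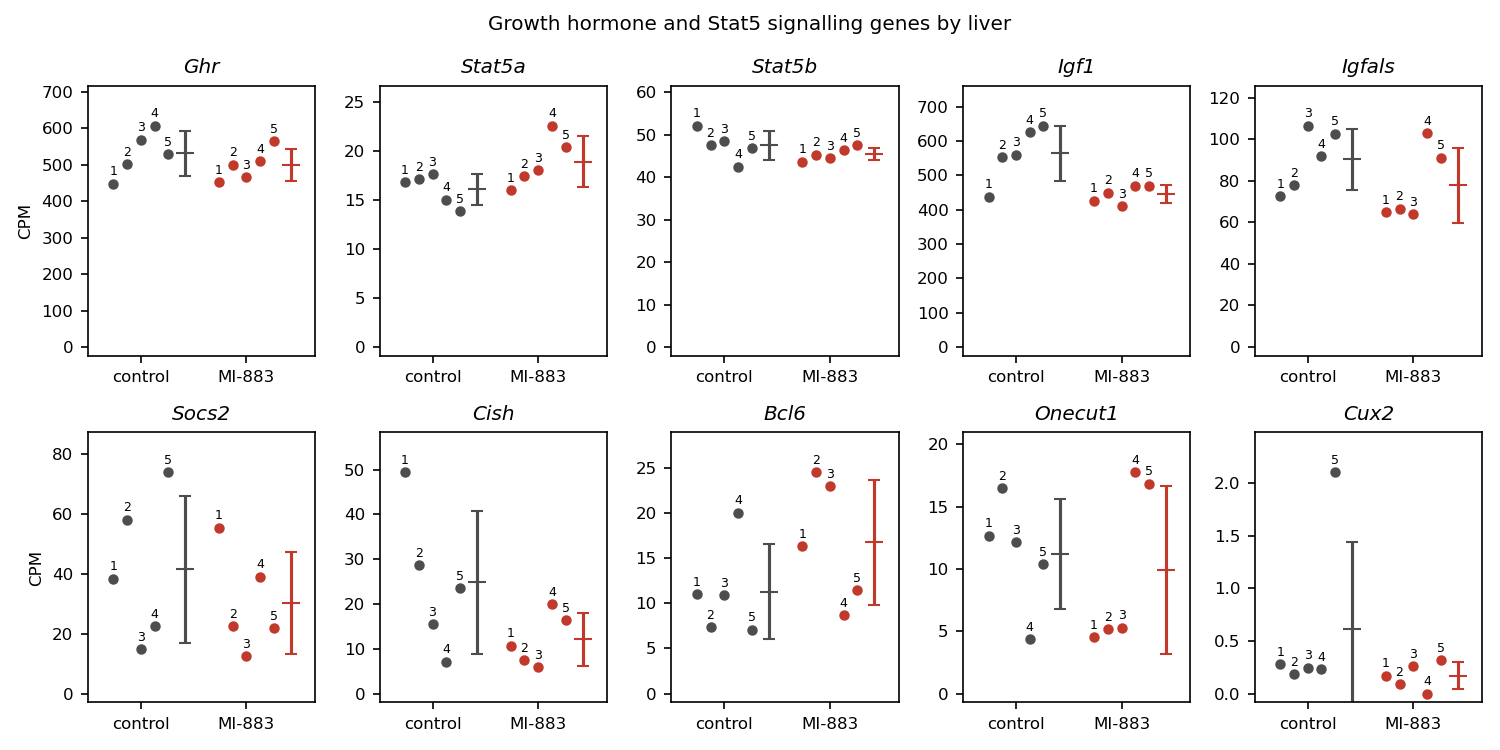
CPM of the 10 genes (y axes, each from its own scale near 0) in the 5 control (grey) and 5 MI-883-treated (red) livers, with the replicate number above each point and the mean ± S.D. beside each group. The groups overlapped for every gene, and the single high *Cux2* point is control 5 at 2.11 CPM, whose group's S.D. bar is cut at the axis.

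The genes differed widely in level. Per kilobase of exon, so that genes of different length can be set beside each other, the order of mean levels in control livers was *Ghr* (115 CPM per kilobase), *Igf1* (57.0), *Igfals* (34.4), *Socs2* (15.4), *Stat5b* (8.57), *Cish* (6.81), *Stat5a* (4.05), *Bcl6* (3.19), *Onecut1* (2.83) and *Cux2* (0.0674). *Ghr*, *Igf1* and *Igfals* were separated from each other and from *Socs2* in all 5 control livers. From *Socs2* down to *Onecut1* each gene overlapped its neighbours in this order, and *Cux2* lay below all others. After MI-883 the order of the first 5 was unchanged, and *Cish* at 3.31 CPM per kilobase came after *Stat5a* (4.76) and *Bcl6* (4.75), with overlapping ranges.

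*Ghr* (chromosome 15, 3317755 to 3583352, GRCm38) encodes the growth hormone receptor, the entry point of the pathway. Its level was 448, 502, 569, 607 and 529 CPM in control livers 1 to 5 and 453, 500.4, 465, 509.6 and 565 CPM in treated livers 1 to 5. The groups overlapped almost completely. The mean was 531 ± 61.1 CPM in control and 499 ± 44.0 CPM in treated livers, with a log2 fold change of −0.09 and a 95% interval from −0.30 to 0.11 (edgeR adjusted *P* = 0.675).

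*Stat5b* (chromosome 11, 100780731 to 100859004) is the predominant Stat5 gene of the liver, and in these livers it was counted at 52.1, 47.6, 48.5, 42.5 and 46.8 CPM without and 43.6, 45.3, 44.5, 46.3 and 47.5 CPM with MI-883. Control livers held both the highest and the lowest value. Its log2 fold change was −0.06, with an interval from −0.20 to 0.08 (edgeR adjusted *P* = 0.670), the narrowest of the 10 genes.

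*Stat5a* (chromosome 11, 100859351 to 100885169), the neighbouring paralog, was at 16.8, 17.1, 17.6, 15.03 and 13.8 CPM in control and at 16.0, 17.4, 18.0, 22.5 and 20.4 CPM in treated livers. Treated livers 3, 4 and 5 were above every control liver, and treated livers 1 and 2 lay within the control range. The log2 fold change of 0.23 had an interval from 0.01 to 0.45 (edgeR *P* = 0.0410, adjusted *P* = 0.298), and the exact permutation test of 5 against 5 livers, whose smallest possible *P* is 0.00794, gave *P* = 0.0873. The paralogs share 265 stretches of 100 bases, 3.44% of those of *Stat5a* and 4.79% of those of *Stat5b*, so a small part of their reads is of uncertain origin.

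*Igf1* (chromosome 10, 87858265 to 87937047) encodes insulin-like growth factor 1, the main growth-promoting product of growth hormone action on the liver, and it came closest to a difference among the 10 genes. Control livers had 438, 553, 561, 626 and 645 CPM, and treated livers 426, 449, 410.2, 470.0 and 470.4 CPM. Controls 2 to 5 were above all 5 treated livers, and control 1 lay within the treated range. The mean was 564 ± 81.2 CPM in control and 445 ± 26.7 CPM in treated livers. The log2 fold change was −0.34 ± 0.10 (SE), with an interval from −0.56 to −0.12 (edgeR *P* = 0.00493, adjusted *P* = 0.142), and the exact permutation test gave *P* = 0.0317. The adjusted *P* was 0.0332 by DESeq2 and 0.0324 by edgeR without control 1, and over the 17 alternatives it ranged from 0.0324 to 0.285. All 6 hepatocyte marker genes also had negative log2 fold changes, with a median of −0.26, and their part in the *Igf1* difference was not tested.

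*Igfals* (chromosome 17, 24877844 to 24882011) encodes the acid-labile subunit that holds IGF1 in a large complex in plasma. It was at 72.7, 77.9, 106, 91.8 and 103 CPM in control and at 64.9, 66.6, 63.8, 103 and 91.0 CPM in treated livers. Treated livers 1 to 3 were below every control, whereas treated livers 4 and 5 lay within the control range. For *Igfals* the log2 fold change was −0.21, with an interval from −0.54 to 0.11 (edgeR adjusted *P* = 0.519).

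*Socs2* (chromosome 10, 95383903 to 95417321) and *Cish* (chromosome 9, 107296659 to 107302784) encode inhibitors that Stat5 induces and that act back on the receptor. *Socs2* was counted at 38.4, 58.0, 14.8, 22.4 and 73.8 CPM in control and at 55.3, 22.5, 12.5, 39.0 and 21.9 CPM in treated livers. Within each group the values spread several-fold, and between the lowest and the highest of all 10 livers they differed 5.90-fold. MI-883 and control differed by a log2 fold change of −0.45, with an interval from −1.39 to 0.48 (edgeR adjusted *P* = 0.640). Of the 100-base stretches of *Socs2*, 2.31% also occur in *Gm9847*, and reads from these are of uncertain origin.

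Of the 9 members with a mean of 1 CPM or more, *Cish* had the widest spread, with 49.4, 28.7, 15.4, 7.15 and 23.5 CPM in control and 10.7, 7.43, 5.85, 20.02 and 16.4 CPM in treated livers. Controls 1, 2 and 5 were above every treated liver, while control 4 was lower than 4 of the 5. The highest and lowest livers differed 8.44-fold. The mean was 24.8 ± 16.0 CPM in control and 12.1 ± 6.0 CPM in treated livers. The edgeR log2 fold change of −1.05 ± 0.44 (SE) had an interval from −1.997 to −0.10 (edgeR *P* = 0.0334, adjusted *P* = 0.277), and the exact permutation test gave *P* = 0.159.

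*Bcl6* (chromosome 16, 23965050 to 23988866) encodes a transcriptional repressor that competes with Stat5 for DNA sites and whose expression Stat5 lowers. Its values were 11.0, 7.34, 10.9, 20.01 and 7.06 CPM in control and 16.3, 24.5, 22.9, 8.66 and 11.4 CPM in treated livers. Treated livers 2 and 3 were the highest, followed by control 4 and treated liver 1, and the other 6 livers of both groups lay between 7.06 and 11.4 CPM. For *Bcl6* the log2 fold change was 0.56 ± 0.32 (SE), with an interval from −0.12 to 1.25 (edgeR adjusted *P* = 0.411).

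*Onecut1* (chromosome 9, 74861921 to 74889648) encodes hepatocyte nuclear factor 6, a factor that acts with Stat5 in sex-dependent transcription. Control livers had 12.7, 16.5, 12.1, 4.34 and 10.4 CPM, and treated livers 4.55, 5.18, 5.29, 17.8 and 16.8 CPM. The values formed a low set of 4 livers, control 4 and treated livers 1 to 3, below 5.30 CPM, and a high set above 10 CPM. The log2 fold change was −0.18, with an interval from −1.09 to 0.74 (edgeR adjusted *P* = 0.870), and it turned to 0.012 without control 2 and to 0.010 without treated liver 1. Of the 100-base stretches of *Onecut1*, 51.7% also occur in *Gm20649*, so its level is uncertain if the counting left out reads with several positions.

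*Cux2* (chromosome 5, 121857962 to 122050415) was near the limit of measurement. It had 10, 6, 6, 8 and 48 counts in control livers and 5, 2, 7, 0 and 9 counts in treated livers. Control 5 alone stood out, at 2.11 CPM against at most 0.279 CPM in the other 4 controls and 0.319 CPM in treated livers. This gave *Cux2* a log2 fold change of −1.70, which had an interval from −3.46 to 0.06 (edgeR adjusted *P* = 0.338) and rests on that liver, since *Cux2* did not reach the minimum of 60 counts when control 5 was left out.

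**Figure D2:**
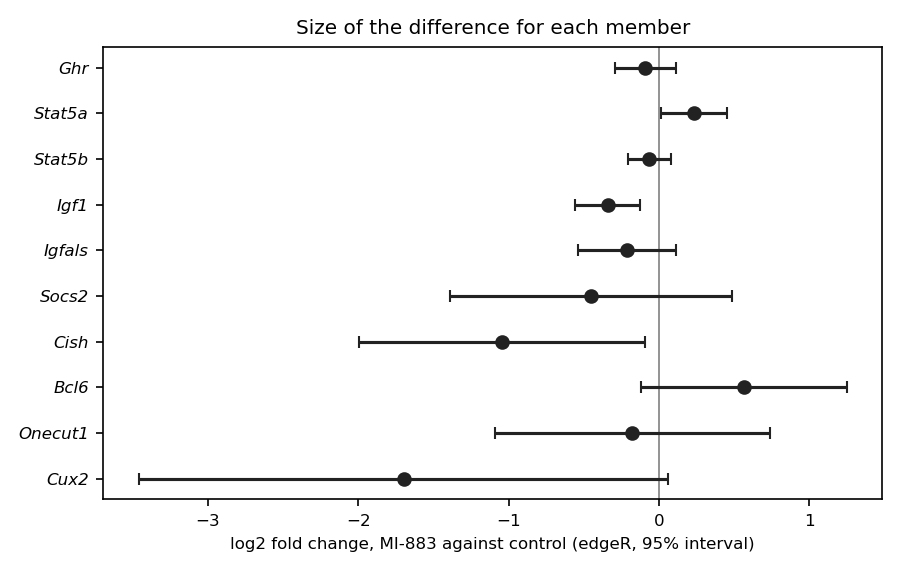
Log2 fold change of MI-883 against control (x axis, edgeR, 5 livers per group) for each of the 10 genes (y axis), with bars for the 95% interval. The intervals of *Igf1*, *Cish* and *Stat5a* leave out 0 before adjustment, and those of *Stat5b* and *Ghr* are the narrowest.

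The 10 genes differed in how much they varied within the groups. The within-group standard deviation of log2 CPM was 0.89 for *Socs2*, 0.90 for *Cish*, 0.86 for *Onecut1* and 0.62 for *Bcl6*. Among genes within 0.5 log2 units of the same mean level, these were larger than the deviations of 99.7% of 2141 genes, 99.6% of 2215, 99.5% of 1756 and 98.6% of 2099, respectively. By contrast *Stat5b* at 0.08 exceeded 14.6% of 1770 such genes, *Ghr* at 0.15 exceeded 45.8% of 214, and *Igf1* at 0.17 exceeded 58.1% of 217. By this share the other 3 genes lay between, with *Stat5a* at 0.17 above 68.0% of 2287, *Igfals* at 0.28 above 94.6% of 1182 and *Cux2*, with its few counts, at 1.14 above 96.3% of 591.

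Of the variable genes, *Bcl6*, *Onecut1* and *Cish* set the same 4 livers of both groups apart. The 4 livers with the highest *Bcl6* (treated livers 1 to 3 and control 4) were the 4 with the lowest *Onecut1* and the 4 with the lowest *Cish*. The order within these 4 differed from gene to gene. This split was named after the values were seen, and how many other genes place the same 4 livers at one end was not examined. *Socs2* did not set them apart, since treated liver 1 had the third highest *Socs2* of all 10 and control 3, which was not among the 4, the second lowest. No correlation was computed for *Onecut1*, which was in none of the pairs listed for that test. *Bcl6* also parted these 4 livers from the rest, and how far its correlation with *Cish* rests on this split was not tested.

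**Figure D3:**
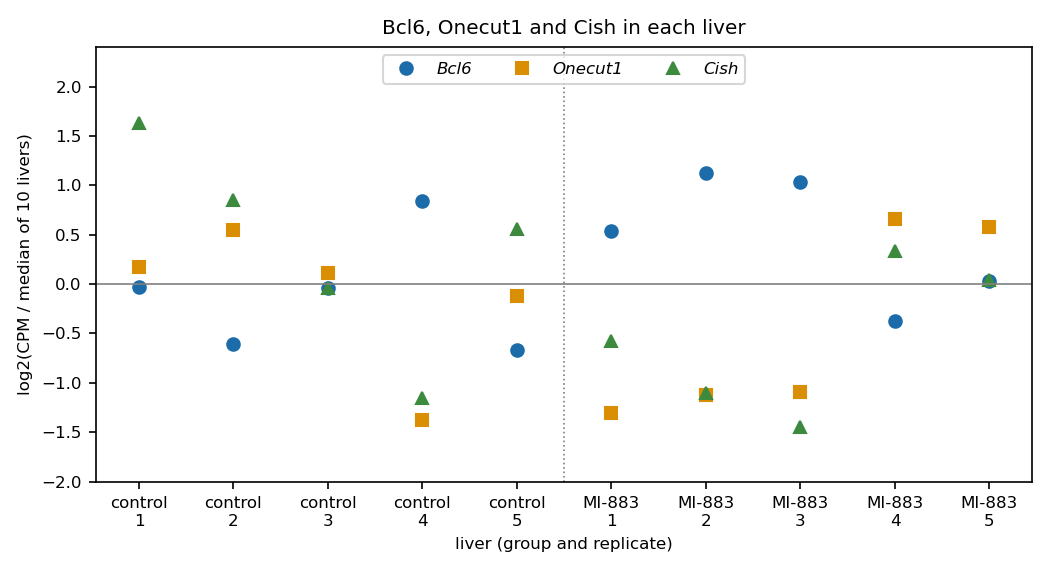
Log2 ratio of CPM to the median of the 10 livers (y axis) for *Bcl6* (circles), *Onecut1* (squares) and *Cish* (triangles) in each liver (x axis), with the groups parted by the dotted line. Control 4 and treated livers 1 to 3 lie above the median for *Bcl6* and below it for *Onecut1* and *Cish*.

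Correlations were computed for 6 pairs over 10 livers, on log2 CPM after removal of the group means, with exact permutation within groups and Benjamini-Hochberg adjustment over the 6. *Bcl6* and *Cish* were negatively related, with Pearson's *r* = −0.79 (exact permutation *P* = 0.0149, adjusted *P* = 0.0448) and Spearman's rho = −0.67 (exact permutation *P* = 0.0540, adjusted *P* = 0.108). Without treated livers 2 and 3, which lie farthest from the median of *Bcl6*, *r* was −0.71 (exact permutation *P* = 0.0875) and rho was −0.57 (exact permutation *P* = 0.210). *Igf1* and *Igfals* were positively related, with *r* = 0.67 (exact permutation *P* = 0.0135, adjusted *P* = 0.0448) and rho = 0.77 (exact permutation *P* = 0.0156, adjusted *P* = 0.0933). Without controls 4 and 5, which lie farthest from the median of *Igf1*, *r* was 0.69 (exact permutation *P* = 0.0528) and rho was 0.76 (exact permutation *P* = 0.00833). Both relations kept their direction and much of their size with 8 livers, and the causes of the changes in *P* were not tested. The livers left out were picked on log2 CPM before the group means were removed. Control 4, with deviations from its group mean of 0.93 for *Bcl6* and −1.52 for *Cish*, was thus kept for that pair. Control 1, at −0.35 for *Igf1* and −0.30 for *Igfals*, was kept for the other pair. With scaling to total counts neither passed the threshold (adjusted *P* = 0.133 for each).

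The 2 feedback genes *Cish* and *Socs2* had *r* = 0.56 (exact permutation *P* = 0.13, adjusted *P* = 0.156) and rho = 0.48 (exact permutation *P* = 0.203, adjusted *P* = 0.243). *Bcl6* and *Socs2* had *r* = −0.60 (exact permutation *P* = 0.0907, adjusted *P* = 0.136) and rho = −0.53 (exact permutation *P* = 0.149, adjusted *P* = 0.224). *Stat5a* and *Stat5b* had *r* = 0.56 (exact permutation *P* = 0.0749, adjusted *P* = 0.136) and rho = 0.70 (exact permutation *P* = 0.0368, adjusted *P* = 0.108), and *Igf1* and *Socs2* had *r* = 0.11 (exact permutation *P* = 0.821, adjusted *P* = 0.821) and rho = 0.12 (exact permutation *P* = 0.788, adjusted *P* = 0.788). Without the 2 livers farthest from the median of the first gene, *r* was 0.53 for *Cish* and *Socs2*, −0.47 for *Bcl6* and *Socs2*, 0.70 for *Stat5a* and *Stat5b* and −0.04 for *Igf1* and *Socs2*. None of these 4 pairs passed the adjusted threshold.

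Among the 11613 genes with a mean of at least 1 CPM, those whose deviations from the group means over the 10 livers were most like those of 4 members were taken as a description, with no test, since they are the highest of very many values. *Igf1* was most like *Pbld1* (*r* = 0.98), *Slc10a1*, the bile acid uptake transporter (*r* = 0.96), and *Cyp7a1*, the rate-limiting enzyme of bile acid synthesis (*r* = 0.96). *Socs2* was most like *Cda* (*r* = 0.94), *Tcp11l2* (*r* = 0.93) and *Gar1* (*r* = 0.90). *Cish* was most like *Rgs3* (*r* = 0.99), *Itgb7* (*r* = 0.96) and *Arid5a* (*r* = 0.94), and *Bcl6* was most like *Pnisr* (*r* = 0.96), *Cks2* (*r* = 0.96) and *Odr4* (*r* = 0.94). The points share their libraries and depth.

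The rest of the pathway upstream of the nucleus showed no change called by edgeR with all livers. Of 15 receptor, kinase and adaptor genes, including *Jak2* and *Stat3*, none passed the edgeR test, and 1 had an unadjusted *P* under 0.05, against 15.6% of all genes. The median of their log2 fold changes was 0.03. That gene was *Prlr*, the receptor of prolactin, a hormone that also signals through Jak2 and Stat5. It was at 36.8, 52.6, 47.1, 64.7 and 114 CPM in control and at 28.7, 38.9, 19.5, 33.2 and 22.9 CPM in treated livers. Treated liver 2 alone reached into the control range. For *Prlr* the log2 fold change was −1.14 ± 0.27 (SE, edgeR adjusted *P* = 0.0723, and 0.0254 by DESeq2). It was the only 1 of the 15 genes that DESeq2 called, against 3.5% of all genes. *Src* had a log2 fold change of 0.55 (edgeR adjusted *P* = 0.345).

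Of 10 other SOCS and feedback genes none passed the test and none had an unadjusted edgeR *P* under 0.05, with a median log2 fold change of −0.02. The values furthest from 0 were −0.27 for *Socs3* (edgeR adjusted *P* = 0.465), which cytokines such as interleukin-6 induce, and −0.23 for *Cbl* (adjusted *P* = 0.731). The difference of *Cish* was thus larger than that of any gene in this list, although it too did not pass.

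Of 12 tested genes of the IGF axis, to which *Igf1* and *Igfals* belong by function, none passed the edgeR test, and DESeq2 called 2 higher and 1 lower, against 3.5% of all genes in either direction. In 2 of the 12 the groups did not overlap, against 3.98% of all genes. The median log2 fold change was 0.19. The values furthest from 0 were those of *Igfbp6*, a binding protein (1.17, edgeR adjusted *P* = 0.347), and *Igf2* (−0.95, adjusted *P* = 0.450), both under 2 CPM on average. The genes that DESeq2 called are named after their values were seen. *Igfbp2*, a secreted binding protein of IGF1, was at 846 ± 63.7 CPM in control and 549 ± 140.3 CPM in treated livers without overlap (log2 fold change −0.62, edgeR adjusted *P* = 0.0746). *Htra1*, a protease that can cleave binding proteins, was at 1.35 ± 0.31 and 2.41 ± 0.34 CPM without overlap (0.83, edgeR adjusted *P* = 0.0679), and *Igf2r*, which clears IGF2, was at 25.8 ± 5.01 and 36.6 ± 7.06 CPM (0.51, edgeR adjusted *P* = 0.148).

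Male-biased liver genes, many of which depend on pulsed growth hormone and Stat5b, were the only one of the 9 lists examined with calls by edgeR. Of 20 tested genes 4 rose and none fell (edgeR, adjusted *P* under 0.05), where 0.764% of all tested genes rose and 0.265% fell, and DESeq2 called 6 of the 20, all higher, against 3.5% of all genes. The list was chosen with earlier results of these data known, so these shares are a description and not an independent test. In all, 16 of the 20 log2 fold changes were positive with a median of 0.37, against 0.0045 over all genes. *Cyp4a12b*, a fatty acid hydroxylase, rose from 116 ± 19.8 to 201 ± 33.9 CPM (log2 fold change 0.80 ± 0.14, SE, edgeR adjusted *P* = 0.0141). Its close paralog *Cyp4a12a* rose by 0.85 (adjusted *P* = 0.0428), the cytochrome P450 gene *Cyp2d9* by 0.58 (adjusted *P* = 0.0264) and the complement gene *C6* by 0.59 (adjusted *P* = 0.0306). In each of the 4 every treated liver was above every control liver, as in 5 of the 20 genes of the list and 3.98% of all tested genes in either direction. The other gene, *Selenbp2*, is named after its values were seen. It was at 122 ± 105 CPM in control and 439 ± 138 CPM in treated livers (log2 fold change 1.84, edgeR adjusted *P* = 0.0561, and 0.00993 by DESeq2). *Cyp4a12a* and *Cyp4a12b* are close paralogs, and the *Mup* genes of the list are of 1 family. How much sequence is shared within either set was not examined, so their separate levels are uncertain. The number of calls was 3 without control 1, control 3 or treated liver 1, 2 without control 4, treated liver 3 or treated liver 4, and 1 without control 2, control 5, treated liver 2 or treated liver 5.

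Of 18 tested female-biased genes none passed the edgeR test, 12 of the 18 log2 fold changes were negative, and the median was −0.14. The median turned to 0.083 without control 5, the liver with the high *Cux2*. The values furthest from 0 were those of *Cyp2c69* (−1.80, edgeR adjusted *P* = 0.252) and the transporter gene *Slc22a26* (−1.27, edgeR adjusted *P* = 0.197), both under 1 CPM on average. DESeq2 called 1 of the 18, and the groups did not overlap in 1 of the 18, against 3.5% and 3.98% of all genes. Both were *Cyp2c40*, a cytochrome P450 gene named after its values were seen, at 1.53 ± 0.76 CPM in control and 0.64 ± 0.22 CPM in treated livers (log2 fold change −1.24, edgeR adjusted *P* = 0.129, and 0.0317 by DESeq2). Control 5 had the highest level of 8 of the 18 genes, whereas no other liver had the highest of more than 3. The same liver had the lowest *Bcl6* and the highest *Igf1*, *Socs2* and *Cux2* of all 10.

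The livers also differed in male-biased genes within each group. Control 1 was below the median of the 10 livers of both groups for all 20 and control 2 for 19, while control 3 was above it for 14. Among treated livers, liver 4 was above it for all 20, and livers 1 and 3 for 7 each. Control 1 had the highest *Cish* and control 2 the second highest, whereas treated liver 4 had the fourth highest. Among controls 1 and 2 and treated liver 4, which are of different groups, the order in *Cish* was thus not that of the male-biased genes. The relation over all 10 livers was not tested.

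**Figure D4:**
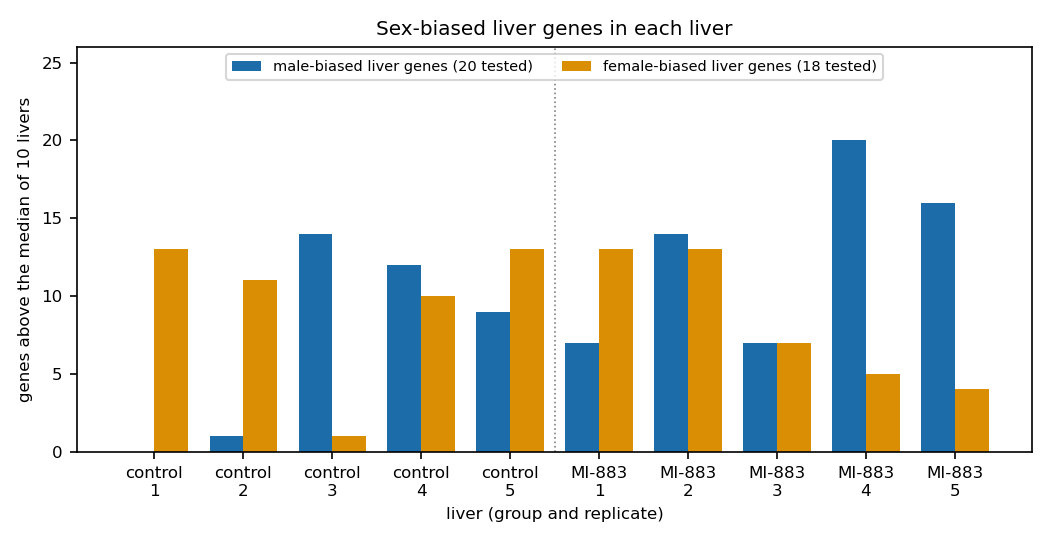
Number of genes above the median of the 10 livers (y axis) among 20 male-biased (blue) and 18 female-biased (orange) liver genes, in each liver (x axis), with the groups parted by the dotted line. Control 1 has 0 and treated liver 4 has 20 male-biased genes above the median.

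Of 5 lipid genes known to rise when the liver loses growth hormone signalling none passed the test, and their median log2 fold change was 0.11. *Mogat1*, an enzyme of triglyceride synthesis, had a value of 0.55 (edgeR adjusted *P* = 0.215), and *Pparg*, the regulator of lipid storage, a value of −0.21 (adjusted *P* = 0.324). Of 15 liver transcription factors and corepressors used by Bcl6 none passed the edgeR test, DESeq2 called 2 lower (3.5% of all genes in either direction), and the median was −0.08. *Foxa2* had a log2 fold change of −0.38 (adjusted *P* = 0.303). *Cebpa*, a factor that maintains the hepatocyte state, had −0.30 (edgeR adjusted *P* = 0.133, and 0.0151 by DESeq2). *Onecut2*, the paralog of *Onecut1*, is named after its values were seen. It was at 118 ± 1.91 CPM in control and 96.9 ± 8.38 CPM in treated livers without overlap (log2 fold change −0.28, edgeR adjusted *P* = 0.0765, and 0.00540 by DESeq2), and unlike *Onecut1* it did not split into a low and a high set.

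**Figure D5:**
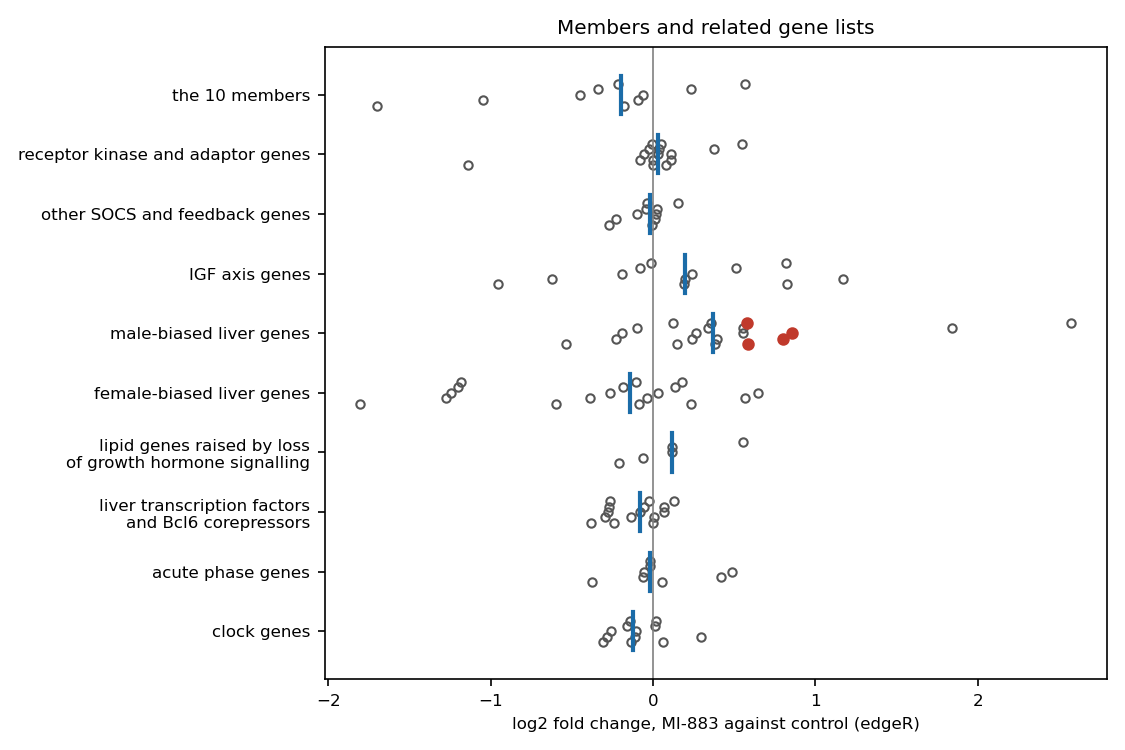
Log2 fold change of MI-883 against control (x axis, edgeR) for the genes of each list (y axis), each circle a gene and each blue bar the median of the list. Filled red circles passed an adjusted *P* of 0.05, and all 4 are male-biased liver genes with values between 0.58 and 0.85.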

How the data were processed

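Total liver RNA of 5 control and 5 MI-883-treated mice was sequenced with paired ends on a NovaSeq6000 after directional library preparation. According to the methods of the paper and the submitters' processing notes, reads were trimmed with fastp 0.23.0, aligned to mm10 with STAR and counted with featureCounts. The gene annotation and the strand setting are not given in the sources used here. What the authors deposited are whole-number read counts for each Entrez gene, not normalized. Every listed gene had at least 1 count over the livers, so genes without any count are absent. Of 16647 genes 16644 matched RefSeq, which gave symbols and GRCm38 positions.

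Livers were grouped by their labels. The 3428 genes with fewer than 60 counts in total were left out, as the study's minimum of 60 was read as a sum over livers, and the test was that of edgeR 4.0.16 (R 4.3.3, TMM scaling, quasi-likelihood F test, condition as the only term, Benjamini-Hochberg adjustment). Log2 CPM used a prior count of 2. Exact permutation tests were two-sided over 252 splits, and the code was tested on simulated data. DESeq2 1.42.0, other scalings, other filters, the replicate block and leaving out each liver were tried. Totals ran from 23513665 to 36221514 counts over all livers. In control livers a floor of 3 counts lay at 0.104 CPM on average, which covers counting error only. Named are the 10 members, of each list the genes that passed the edgeR test or, where fewer than 2 did, the 2 with the largest change, and for 4 members the 3 most similar genes. Members and lists were chosen with earlier results of these data known.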

Additional observations from a re-analysis of the deposited data

Results flagged for a closer look

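In 62 groups of 5 livers (31 named genes in 2 groups each), 4 had 1 liver far from the other 4 by Dixon's test, where chance gives about 1 in 20, or 3.1. *Cux2* in control 5 was at 2.11 CPM, with the next control at 0.279 CPM. *Cyp2c69*, a female-biased gene, was also highest in control 5, at 0.921 CPM with the next control at 0.307 CPM. *Igf2* in control 2 was at 1.5 CPM with the next at 0.405 CPM, and *C6* in control 3 was at 329.5 CPM with the next at 241 CPM.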

How the results depend on the processing

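The number of the 10 members that passed the test, 0 by edgeR, was 1 with DESeq2 and between 0 and 1 when single livers were left out. In both cases the member was *Igf1*, and the liver whose absence gave the call was control 1. All members kept their direction under all alternatives with a value, except *Onecut1*, whose log2 fold change lay between −0.487 and 0.0122 when livers were left out and was positive without control 2 (0.0122) and without treated liver 1 (0.00997). *Cux2* had no value without control 5, with 60 counts in every liver or with filterByExpr. The number of all genes called, 136, was 463 with DESeq2 and between 62 (without treated liver 5) and 208 (without control 1) when livers were left out.

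DESeq2 called 1 of 15 receptor, kinase and adaptor genes and 3 of 12 IGF axis genes, where edgeR called 0. It also called 1 of 18 female-biased genes and 2 of 15 liver transcription factors and corepressors, again with 0 by edgeR. Over all tested genes the shares called were 3.5% by DESeq2 and 1.03% by edgeR. Leaving out single livers gave 0 to 1 calls among receptor, kinase and adaptor genes (1 without control 1), 0 to 1 among IGF axis genes (1 without treated liver 1), 0 to 1 among acute phase genes (*Orm2*, without control 1) and 1 to 3 among male-biased genes, where 4 were called with all livers. The replicate numbers were not taken as pairs, since the correlation of same-numbered deviations ran from −0.121 to 0.36 over the 5 numbers. With the replicate block 89 genes, 2 male-biased genes and no member were called.

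With total counts *r* was 0.505 for *Igf1* and *Igfals* and −0.726 for *Bcl6* and *Cish*, neither past the threshold. Without single livers, *r* for *Igf1* and *Igfals* lay between 0.633 and 0.71 and passed in no case, *r* for *Bcl6* and *Cish* between −0.978 and −0.657 and passed without control 1 alone, and *r* for *Igf1* and *Socs2* between −0.151 and 0.286. The sign of the last turned without control 5 (−0.151) and without treated liver 3 (−0.024). The exact test allows fewer permutations with fewer livers, and whether this or anything else caused the shifts was not tested. Depth limits *Cux2*, with at most 10 counts in 9 of the livers.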

Other observations

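Acute phase and clock genes, which share regulators or timing with growth hormone signalling, were examined beside the 10 genes. Of 8 acute phase genes none passed the edgeR test, with 2 at an unadjusted *P* under 0.05 (15.6% of all tested genes) and a median log2 fold change of −0.02. *Orm2*, an orosomucoid gene, had a value of 0.48 (edgeR adjusted *P* = 0.188), and *Lcn2*, which inflammation induces, a value of 0.42 (adjusted *P* = 0.544). Of 12 tested clock genes none passed, with 2 at an unadjusted *P* under 0.05, a share close to that 15.6%, and a median of −0.12. *Dbp*, an output gene of the clock, was at 131 ± 14.96 CPM in control and 105 ± 12.6 CPM in treated livers (−0.31, edgeR adjusted *P* = 0.167), and *Cry1*, a repressor of the clock, had a value of 0.30 (adjusted *P* = 0.406).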
